A study of Mus musculus with 6 samples.

Results

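The genes that bring glucose into the cell and carry its carbon through glycolysis, lactate, the citrate cycle and the pentose phosphate pathway were followed in sorted fetal DN2 cells with and without E2A. The group was a list of 36 genes, each read by 1 probe set of a mouse expression array, the brightest over the 6 arrays among those that name the gene alone. For 33 of the 36 such a probe set was found, out of 18193 genes read in the same way, and Gpi1, Eno1 and G6pdx were not analysed here. Of the 33, 4 were higher in E2A-deficient cells and 0 were lower: the lactate dehydrogenase subunit Ldhb (2.40-fold), the pyruvate kinase Pkm (1.51-fold), the oxoglutarate dehydrogenase subunit Ogdh (1.34-fold) and the triose phosphate isomerase Tpi1 (1.32-fold).

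Cells of both groups were sorted as DN2 cells from fetal thymus of mice on the FVB background, 3 arrays from wild type and 3 from E2A deficient animals, with no treatment named. DN2 cells are thymocytes without CD4 and CD8 at the stage when progenitors settle on the T-cell fate, and the gene Tcf3 encodes the E2A proteins, transcription factors of the E protein family. The labels give neither the deleted part of the gene, nor whether it was removed in the whole animal, nor the fetal age, the sex or the number of animals behind an array. The replicates are therefore separate samples of unknown origin, and the p-values measure the spread between these samples, which may be technical.

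Glucose enters lymphoid cells through facilitative transporters, is trapped by hexokinases and is split by glycolysis into pyruvate. Pyruvate either becomes lactate, which monocarboxylate transporters carry out of the cell, or enters mitochondria through the pyruvate dehydrogenase complex and feeds the citrate cycle. The pentose phosphate pathway branches off early and supplies NADPH and ribose for nucleotides. Thymocytes draw on all of these routes when they divide, and signals through Notch and the interleukin-7 receptor are known to sustain their glucose use.

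The stretches of 250 bases before the transcription start of the 4 genes that rose, and of Ldha, the sister gene of Ldhb, are printed because E proteins bind E-boxes, the motif CANNTG, where N is any base. RefSeq supplied the sequences, of build GRCm38.p6, and where it lists several starts the most upstream was taken. They run 5′ to 3′ along the gene's own strand, and the capitals mark every E-box. The windows are chr6:142507958-142508207 for Ldhb (minus strand), chr7:46845554-46845803 for Ldha (plus), chr9:59656326-59656575 for Pkm (plus), chr6:124814159-124814408 for Tpi1 (minus) and chr11:6291347-6291596 for Ogdh (plus).
Ldhb: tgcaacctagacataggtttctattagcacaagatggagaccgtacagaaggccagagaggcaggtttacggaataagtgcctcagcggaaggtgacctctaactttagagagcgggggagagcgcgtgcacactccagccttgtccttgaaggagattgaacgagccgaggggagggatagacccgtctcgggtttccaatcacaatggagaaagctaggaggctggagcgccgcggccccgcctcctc
Ldha: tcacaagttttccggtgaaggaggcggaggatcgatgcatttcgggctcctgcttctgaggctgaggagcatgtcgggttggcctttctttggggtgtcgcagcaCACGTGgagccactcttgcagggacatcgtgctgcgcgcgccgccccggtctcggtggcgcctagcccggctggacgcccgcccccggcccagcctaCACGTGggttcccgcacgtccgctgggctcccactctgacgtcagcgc
Pkm: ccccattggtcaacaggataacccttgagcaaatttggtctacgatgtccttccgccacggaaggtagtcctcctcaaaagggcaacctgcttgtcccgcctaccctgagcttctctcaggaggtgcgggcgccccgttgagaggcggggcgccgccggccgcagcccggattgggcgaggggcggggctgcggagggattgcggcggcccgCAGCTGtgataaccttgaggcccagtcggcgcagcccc
Tpi1: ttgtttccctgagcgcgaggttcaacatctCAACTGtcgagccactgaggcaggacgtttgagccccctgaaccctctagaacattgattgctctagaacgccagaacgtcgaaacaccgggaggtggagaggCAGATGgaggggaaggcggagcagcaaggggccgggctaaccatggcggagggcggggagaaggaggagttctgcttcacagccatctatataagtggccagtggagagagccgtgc
Ogdh: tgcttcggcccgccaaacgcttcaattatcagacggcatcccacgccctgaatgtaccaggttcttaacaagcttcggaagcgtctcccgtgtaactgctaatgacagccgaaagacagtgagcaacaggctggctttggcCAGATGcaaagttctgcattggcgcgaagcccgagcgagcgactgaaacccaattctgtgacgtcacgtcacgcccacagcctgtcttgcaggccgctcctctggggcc
The Ldhb window held 0 E-boxes, and those of Tpi1, Pkm and Ogdh held 2, 1 and 1. Both E-boxes of the Ldha window were CACGTG, the form known for MYC and hypoxia-inducible factors. The single E-box of Pkm was CAGCTG, a form that E proteins favour. Of all 27025 promoters of this length, 66.1% held CANNTG, against 21 of the 31 measured members with a listed promoter. CAGCTG stood in 12.7% of all promoters and in 2 of the 31, CACCTG (read on both strands, as CAGGTG on the other) in 17.1% and 2, and CACGTG in 6.04% and 3. The core of the hypoxia response element, ACGTG on either strand, which overlaps CACGTG, was found in 16.5% of all promoters and in 12 of the 31. These are matches of letters in 1 window per gene, and no binding was measured.

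Across the whole array 630 genes, 3.46% of the 18193, differed between the groups (limma, two-sided, Benjamini-Hochberg adjusted p under 0.05), 2.40% higher and 1.06% lower in E2A-deficient cells. After quantile normalization the calls numbered 617, and the higher calls made up 58.3% of them in place of 69.4%. The 4 of 33 called here stand beside that background. At an unadjusted p under 0.05 there were 12 members higher and 1 lower, against 11.1% and 4.56% of all genes. The ranges of the groups were separate in 14 members, 13 of them higher in E2A-deficient cells, against 19.9% of all genes in either direction and 13.2% in the higher one.

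The 33 genes mostly leaned the same way. The log2 difference, E2A-deficient minus wild type, was positive in 29 of the 33 with a median of 0.145, while over all genes it was positive in 56.5% with a median of 0.015. Bright probe sets as a whole were shifted in this direction, and 20 of the 33 lay among the brightest 10% of genes. Over those 1820 genes the median difference was 0.116, 71.5% were positive and 7.42% were called; 18 of the 20 members there were positive and 3 were called. After quantile normalization the median of those 1820 genes was -0.0053, that of the 20 members among them went from 0.192 to 0.039, and 13 of the 20 were positive. Over all 33 members the median was then 0.078, and 24 were positive. Brightness depends on the probes, so it does not rank the messages of different genes.

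**Figure D1:**
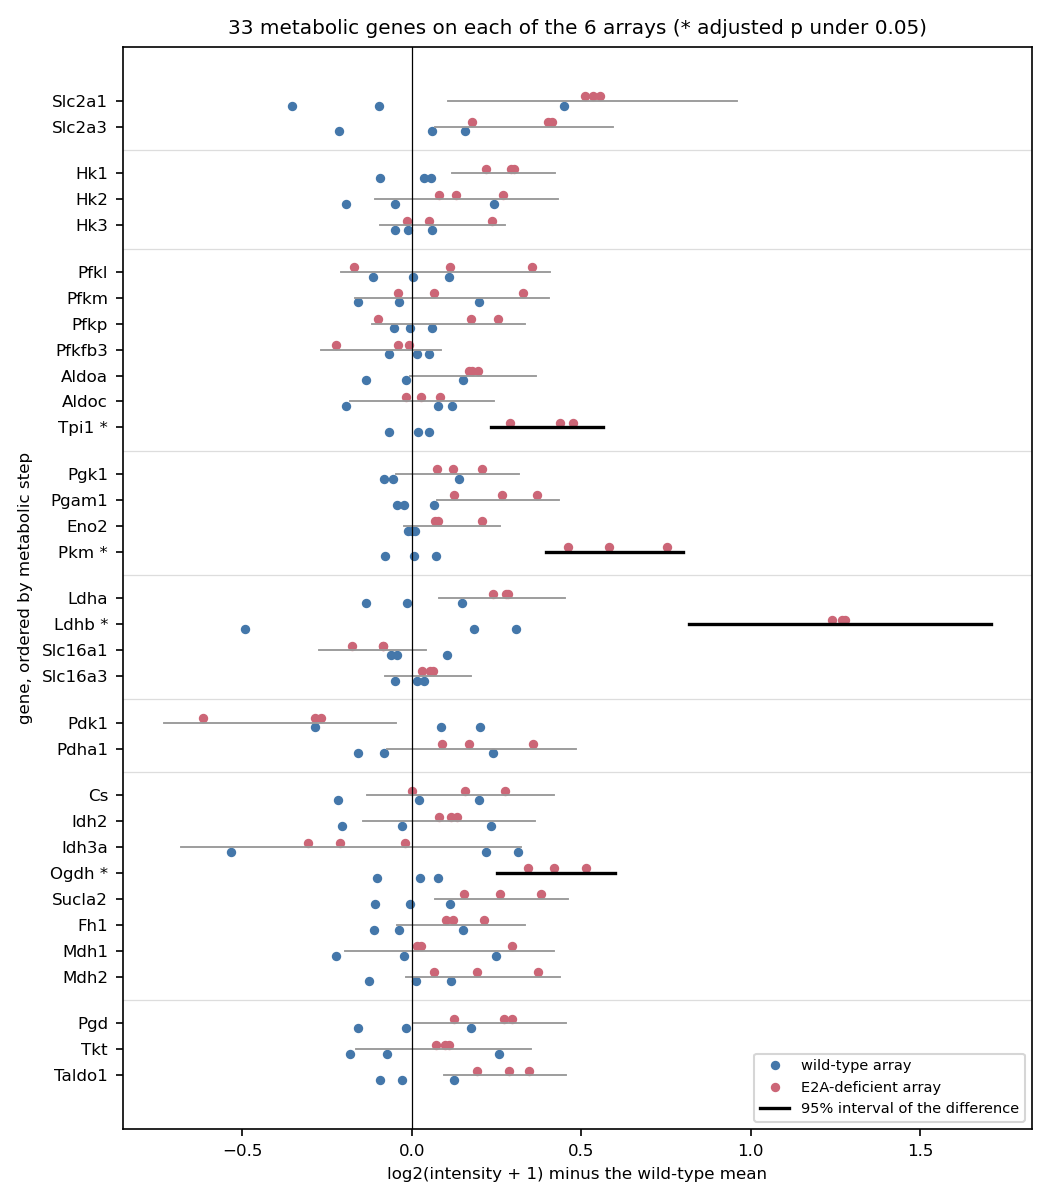
Intensity of each of the 33 measured genes on each array, as log2(intensity + 1) minus the wild-type mean of that gene, ordered by metabolic step from glucose transporters at the top to the pentose phosphate pathway at the bottom. Blue points are wild-type arrays, red points E2A-deficient arrays and horizontal lines the 95% interval of the difference in limma; the 4 genes with black lines passed, and Ldhb lies farthest to the right.

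**Figure D2:**
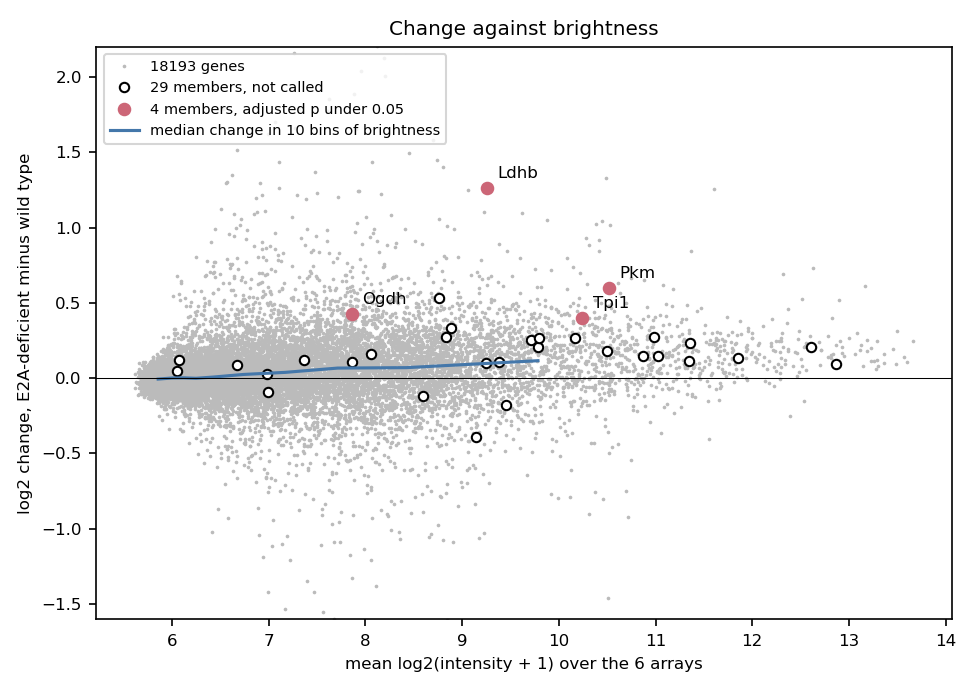
Log2 difference against mean log2(intensity + 1) for 18193 genes (grey; 19 fall outside the plotted range), the 29 members that did not pass (open circles) and the 4 that did (red). The blue line joins the medians of 10 equal bins of brightness and ends at 0.116 in the brightest bin.

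Lactate metabolism held the largest difference of the group. Ldhb encodes the H subunit of lactate dehydrogenase, the form known from oxidative tissues. Its intensities were 487, 446 and 279 in wild-type cells and 949, 929 and 955 in E2A-deficient cells. All 3 E2A-deficient arrays lay far above the wild-type arrays, among which replicate 3 was low. The log2 difference was 1.26 (SE 0.190, 95% interval 0.82 to 1.71, n = 3 per group, limma adjusted p = 0.0153). The gene had 4 probe sets, and all 4 were called higher in the fit per probe set, with differences of 1.26, 1.09, 1.22 and 0.95. The call was lost when any 1 of the E2A-deficient arrays was left out (limma adjusted p = 0.0577, 0.0536 and 0.0616 without replicates 1, 2 and 3), with the difference at 1.25 to 1.27.

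Ldha, the M subunit typical of glycolytic cells, had intensities of 1163, 1040 and 956 in wild-type and 1238, 1273 and 1278 in E2A-deficient cells. The groups did not overlap, but the difference of 0.27 (SE 0.0793) did not pass (limma adjusted p = 0.143). Within each array the log2 ratio of Ldhb to Ldha was -1.25, -1.22 and -1.77 in wild-type and -0.38, -0.46 and -0.42 in E2A-deficient cells. This pair was set side by side after its values were seen. The mean ratios differed by 0.995, with p = 0.1 (exact two-sided test over 20 relabelings of the arrays). That is the lowest p this test can give with 3 arrays per group, so it cannot decide. The lactate transporters did not pass. Slc16a1, which encodes MCT1, read 389, 431 and 384 against 377, 377 and 354, with the E2A-deficient arrays all below the wild-type arrays (-0.12, 95% interval -0.27 to 0.04). Slc16a3, which encodes MCT4, the exporter of strongly glycolytic cells, was dim in both groups, between 62.2 and 67.3 on the 6 arrays.

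**Figure D3:**
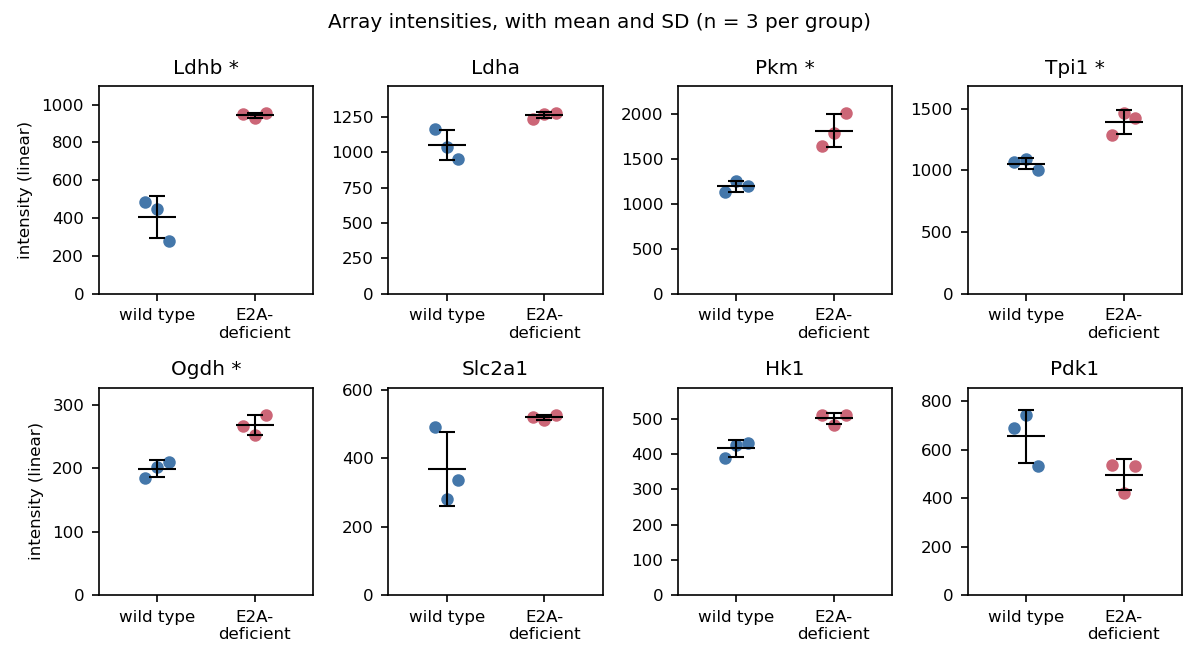
Linear intensities of 8 members on the 3 wild-type (blue) and 3 E2A-deficient (red) arrays, each axis starting at 0, with black bars for the mean and SD. Stars mark Ldhb, Pkm, Tpi1 and Ogdh, which passed; for Slc2a1 wild-type replicate 1 (489) lies close to the E2A-deficient arrays (511 to 527), and for Pdk1 the groups overlap.

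In the later steps of glycolysis Pkm stood out. It encodes the pyruvate kinase of most tissues, which makes pyruvate and ATP in the last step, and the probe set was annotated by gene, so its splice forms were not told apart here. Its intensities were 1131, 1254 and 1200 in wild-type and 1643, 1788 and 2012 in E2A-deficient cells. The lowest E2A-deficient array was well above the highest wild-type array. The difference was 0.60 (SE 0.0865, 95% interval 0.40 to 0.80, limma adjusted p = 0.0133). Pkm was the only member called in each of the 6 fits with 1 array left out. After quantile normalization it was 0.47 and stood just outside the threshold (limma adjusted p = 0.0501).

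The other measured genes of that stretch did not pass. Pgam1, a phosphoglycerate mutase, read 805, 758 and 747 against 926, 838 and 995. The groups did not overlap, and the difference was 0.25 (SE 0.0770, limma adjusted p = 0.150). Pgk1, the first ATP-making enzyme of the pathway, differed by 0.13 with overlapping groups (95% interval -0.05 to 0.32), and its 2 other probe sets gave -0.002 and 0.07. Eno2, the neuronal enolase, lay near the lower end of the array, at 63.1 to 64.0 in wild-type and 66.7 to 73.5 in E2A-deficient cells.

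Among the enzymes of the earlier steps, Tpi1, which interconverts the 2 triose phosphates, rose. It read 1067, 1091 and 1007 in wild-type and 1288, 1467 and 1427 in E2A-deficient cells, without overlap. The difference was 0.40 (SE 0.0706, 95% interval 0.23 to 0.57, limma adjusted p = 0.0269). Its 2 other probe sets differed by 0.39, which was called, and by 0.30, which was not (limma adjusted p over all probe sets 0.0290 and 0.234). The call was the least firm of the 4 together with that of Ogdh: it was lost in 9 of 15 alternatives, among them quantile normalization (0.27, limma adjusted p = 0.105) and each array left out except E2A-deficient replicate 1 (limma adjusted p = 0.0611 to 0.104).

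The other 6 measured genes of those steps did not pass. Aldoa, the main aldolase, read 1506, 1342 and 1236 against 1552, 1524 and 1533, a difference of 0.18 (95% interval -0.01 to 0.37); of its 5 probe sets 4 were higher and 1 gave -0.04. The 3 phosphofructokinase genes, whose product commits sugar to glycolysis, had overlapping groups: the liver form Pfkl differed by 0.10, the muscle form Pfkm by 0.12 and the platelet form Pfkp by 0.11. Pfkl was the gene with the widest E2A-deficient spread among them, 632, 519 and 747. Pfkfb3, which makes the activator of phosphofructokinase, was the only one of these 6 below 0, at -0.09 (95% interval -0.27 to 0.09). Aldoc, the brain aldolase, differed by 0.03.

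Both glucose transporters and all 3 hexokinases were higher on average, and none passed. Slc2a1, which encodes GLUT1, the main transporter of dividing lymphocytes, read 489, 281 and 335 in wild-type and 520, 511 and 527 in E2A-deficient cells. The E2A-deficient arrays were tightly grouped, and the wild-type arrays ranged widely below them. The difference of 0.53 (SE 0.182, 95% interval 0.11 to 0.96) had a limma adjusted p of 0.196. Without wild-type replicate 1 it was 0.76 and passed (limma adjusted p = 0.0118), the only member to gain a call under any alternative. Slc2a3, which encodes the high-affinity transporter GLUT3, read 470, 439 and 363 against 557, 562 and 477, a difference of 0.33 (SE 0.112, limma adjusted p = 0.194), again without overlap.

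Hk1, the hexokinase found in most cells, was nearest to the threshold among the members that did not pass. It read 389, 426 and 432 in wild-type and 512, 484 and 509 in E2A-deficient cells. The groups were separate and each was tight, and the difference was 0.27 (SE 0.0645, 95% interval 0.12 to 0.42, limma adjusted p = 0.0776). Hk2, the inducible hexokinase, differed by 0.16 and Hk3, known from myeloid cells, by 0.09, both with overlapping groups.

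At the entry to mitochondria the measured genes pointed in opposite directions. Pdk1, a kinase that switches off pyruvate dehydrogenase, had the most negative difference of the 33. It read 687, 744 and 530 in wild-type and 537, 422 and 531 in E2A-deficient cells. Wild-type replicate 3 lay within the E2A-deficient range, and the difference of -0.39 (SE 0.146, 95% interval -0.73 to -0.05) did not pass (limma adjusted p = 0.246). Its 3 other probe sets were also negative, at -0.47, -0.08 and -0.20. Pdha1, a catalytic subunit of the dehydrogenase itself, differed by 0.21 with overlapping groups. Its dimmer probe set differed by 0.43 and came close to passing (limma adjusted p = 0.0522 over all probe sets).

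In the citrate cycle Ogdh, a subunit of the complex that turns oxoglutarate into succinyl-CoA, rose. It read 186, 203 and 211 in wild-type and 267, 253 and 285 in E2A-deficient cells, without overlap. The difference was 0.42 (SE 0.0739, 95% interval 0.25 to 0.60, limma adjusted p = 0.0254). Its dimmer probe set gave -0.08, and with the mean of both the difference was 0.17 and the call was lost (limma adjusted p = 0.251). It was also lost in each fit with 1 array left out except that without wild-type replicate 3 (limma adjusted p = 0.0522 to 0.0920).

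The other 7 genes of this group did not pass. Sucla2, a subunit of the ADP-forming succinyl-CoA synthetase, read 873, 803 and 749 against 966, 898 and 1050, a difference of 0.26 (SE 0.0841, limma adjusted p = 0.169). The groups did not overlap, but its 2 dim probe sets gave -0.14 and -0.21. The citrate synthase Cs (0.15), the mitochondrial NADP-dependent isocitrate dehydrogenase Idh2 (0.11), the fumarase Fh1 (0.15), the cytosolic malate dehydrogenase Mdh1 (0.11) and the mitochondrial one, Mdh2 (0.21), had overlapping groups. Idh3a, a catalytic subunit of the NAD-dependent isocitrate dehydrogenase, read 924, 865 and 513 in wild-type and 600, 733 and 642 in E2A-deficient cells. Wild-type replicate 3 lay below and the other 2 above all E2A-deficient arrays, and the difference was -0.18 (95% interval -0.68 to 0.32). The other probe sets of Idh3a gave 0.08, 0.03 and 0.08, and the mean of all its probe sets gave -9.6e-05.

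The 3 measured pentose phosphate genes were bright and higher on average, with a median difference of 0.23, and none passed. Taldo1, the transaldolase, read 2006, 1805 and 1725 against 2245, 2105 and 2339. The groups did not overlap, and the difference of 0.27 (SE 0.0767) did not pass (limma adjusted p = 0.124). Pgd, which encodes the second NADPH-making enzyme, differed by 0.23 with overlapping groups (limma adjusted p = 0.302). Its 3 brightest probe sets gave 0.20 to 0.23, and the dimmest gave 0.35 and was called (limma adjusted p = 0.0258 over all probe sets). Tkt, the transketolase, differed by 0.09 (95% interval -0.17 to 0.35).

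**Figure D4:**
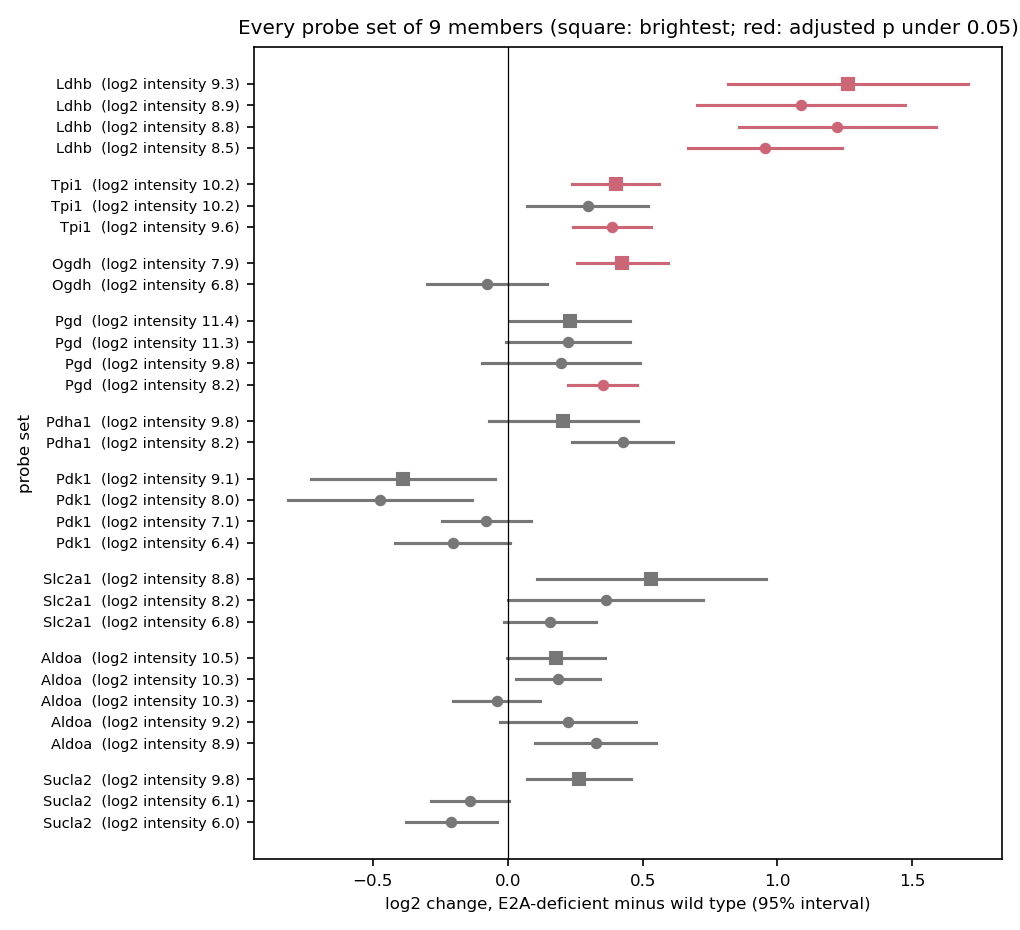
Log2 difference of every probe set of 9 members with its 95% interval in the fit per probe set; squares are the probe sets used in the text, circles the others, and red marks an adjusted p under 0.05. All 4 Ldhb probe sets are red, while the probe sets of Ogdh, Sucla2 and Aldoa lie on both sides of 0. Those of Sucla2 below 0 are dim, with mean log2 intensities of 6.05 and 5.96 against 9.79 for the one used.

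Several probe sets read 24 of the 33 genes, and in 16 of the 24 all of them pointed the same way as the brightest. Of the 81 member probe sets, 9 were called, all higher, beside 3.46% of all genes in the fit per gene. Ldhb accounted for 4 of the 9 and Tpi1 for 2, so these are repeated readings of the same genes. The share called over all probe sets is not given here. Every probe set of Ldhb and Tpi1 carried a suffix that marks probes shared between transcripts.

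The wild-type arrays differed from each other in level over the list. Wild-type replicate 1 was the highest wild-type array in 20 of the 33 genes and replicate 3 the lowest in 22, against 7635 and 6510 of all 18193 genes. The median coefficient of variation of the 33 genes was 9.59% in wild-type and 6.74% in E2A-deficient cells, and over all genes 6.45% and 5.49%. Pgk1 and Pdha1 are X-linked, and Xist read 58.7 on wild-type replicate 3 and 1247 to 4456 on the other 5 arrays. Without that array Pdha1 differed by 0.33 and Pgk1 by 0.11, and neither passed.

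A measure of RNA quality was lower on wild-type replicates 1 and 3 than on the E2A-deficient arrays. Wild-type replicate 2 lay within the E2A-deficient range. The ratio of 5′ to 3′ signal of the beta-actin controls was 0.104, 0.162 and 0.0981 in wild-type and 0.165, 0.160 and 0.149 in E2A-deficient cells. With this ratio as a covariate 0 members passed by limma, and the calls over all genes numbered 125. The differences were then 1.07 for Ldhb, 0.57 for Pkm, 0.42 for Ogdh and 0.37 for Tpi1 (limma adjusted p = 0.203, 0.162, 0.220 and 0.257). Without the covariate they were 1.26, 0.60, 0.42 and 0.40. The ratio was partly aligned with the groups, so this fit cannot tell its part from that of the genotype.

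The labelled cell type was checked against its markers. In wild-type cells 6 of 7 measured DN2 genes, but 0 of the 3 CD4 and CD8 genes, were above the upper quartile of the arrays. The DN2 gene below it was Ptcra, with a mean of 80.5. The quartile was that of all probe sets, while each gene was read by its brightest, so the bar was low. Cd79b, for example, passed it with a mean of 140, at a brightness percentile of 63.1 among all genes. Of the DN2 genes Gata3 rose and Thy1 fell. The summed intensity of 6 markers of innate lymphoid cells went from 1234 to 1473 on the wild-type arrays to 3267 to 3633 on the E2A-deficient arrays, and 5 of the 6 rose. Sums of 4 erythroid markers (295 to 320 against 315 to 385) and 6 thymic epithelial markers (466 to 499 against 509 to 558) were low throughout, and 0 of either list was above that quartile in wild-type cells. The 6 B-lineage markers summed to 538 to 557 against 494 to 517, the 9 myeloid ones to 1410 to 1668 against 1537 to 1780, the 6 NK-cell ones to 975 to 1123 against 987 to 1186 and the 6 mesenchymal and endothelial ones to 2002 to 2142 against 1246 to 1303. In each of these 4 lists 1 gene was above the quartile in wild-type cells. In the mesenchymal and endothelial list that gene was Pdgfrb, with means of 1737 in wild-type and 930 in E2A-deficient cells. The log2 differences of the others in that list ran from -0.03 to 0.04. By limma 1 myeloid gene (Lyz2) and 1 mesenchymal gene (Pdgfrb) fell and 1 NK-cell gene (Gzmb) rose. Gzma, the NK-cell gene above the quartile, went the other way, with means of 658 in wild-type and 511 in E2A-deficient cells. Its difference of -0.36 did not pass (limma unadjusted p = 0.00797, adjusted p = 0.121). Of the B-lineage genes 0 passed, 1 of them being lower at an unadjusted p under 0.05. The 7 proliferation genes summed to 11050 to 11910 against 11380 to 12610, and 0 of them passed, 0 also at an unadjusted p under 0.05. The part of these in the metabolic differences was not tested, and in bulk RNA a change in the share of a cell type and a change in RNA per cell cannot be told apart.

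Around the 33 genes, 95 others were measured: genes of the same metabolism, its regulators, and genes outside glycolysis that respond to low oxygen. Of these 6 rose and 0 fell by limma, against 3.46% called over all genes, 2.40% higher and 1.06% lower. At an unadjusted p under 0.05, 17 were higher and 7 lower, against 11.1% and 4.56% of all genes. The median difference was 0.020. When the beta-actin ratio was added to the model, 1 of the 6, Egln3, passed. Averaging the probe sets of each gene left 3 of the 95 called, and quantile normalization gave 5 higher and 2 lower. Among 21 other genes of sugar transport and glycolysis 1 rose, a share near that background: Pgam2, the muscle form of phosphoglycerate mutase, went from 99.0, 117 and 115 to 304, 207 and 371 (1.37, SE 0.197, limma adjusted p = 0.0131). Its call was lost without E2A-deficient replicate 1 (limma adjusted p = 0.0540), with the difference at 1.32.

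Among 25 other genes of pyruvate and the citrate cycle 1 rose, again near the background. Dlst, the subunit that works next to the product of Ogdh in the same complex, went from 418, 421 and 449 to 610, 579 and 638 (0.50, SE 0.0634, limma adjusted p = 0.00742). With the mean of its 4 probe sets the difference was 0.18 and did not pass. Dld, the third subunit of the complex, which others share, was named after its value was seen and differed by 0.01 (95% interval -0.38 to 0.40). Of 7 other pentose phosphate genes 0 passed by limma. An unadjusted p under 0.05 was found in 3 of the 7, namely Prps2 (-0.30), Rpe (0.39) and Pgls (-0.23). Over all genes that share was 15.7%, with 11.1% higher and 4.56% lower.

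Among 28 regulators of glucose metabolism 2 rose, against 2.40% called higher over all genes. Egln3, one of the oxygen-sensing prolyl hydroxylases that mark hypoxia-inducible factors for destruction, went from 338, 295 and 336 to 628, 638 and 688. The difference of 1.01 (SE 0.0751, limma adjusted p = 9.42e-04) passed in each of its 16 alternatives, and averaging its probe sets gave 0.61. The kinase Akt1, which promotes glucose uptake, went from 302, 295 and 276 to 439, 365 and 410 (0.47, SE 0.0819, limma adjusted p = 0.0254). It lost its call in 7 of 16 alternatives, among them each of 4 arrays left out (limma adjusted p = 0.0724 to 0.0959 without wild-type replicates 2 and 3 and E2A-deficient replicates 1 and 3). Averaging its probe sets gave 0.16.

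Of 14 genes outside glycolysis that respond to low oxygen 2 rose, against 2.40% called higher over all genes, and the median of the 14 was -0.018. The most negative, Ndrg1, named after its value was seen, had groups that did not overlap and differed by -0.87, and it did not pass (limma adjusted p = 0.0890). Ero1a, an oxidase of the endoplasmic reticulum, went from 161, 155 and 156 to 250, 251 and 330 (0.80, SE 0.111, limma adjusted p = 0.0114). The mitochondrial protein gene Higd1a differed by 0.44 (SE 0.0849, limma adjusted p = 0.0361). It lost its call in 8 of 15 alternatives, among them each array left out except wild-type replicate 2 (limma adjusted p = 0.0769 to 0.115). Averaging its probe sets gave 0.12.

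**Figure D5:**
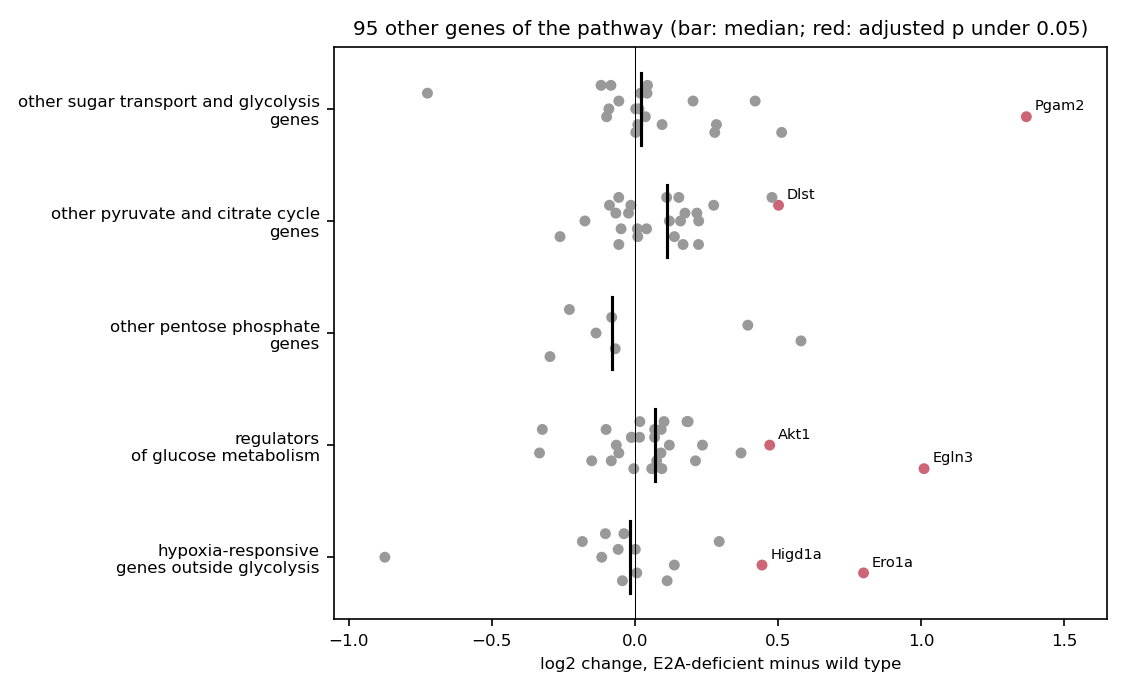
Log2 difference of 95 other genes in 5 lists (glucose metabolism, its regulators and genes outside glycolysis that respond to low oxygen), with 1 point per gene. A black bar marks the median of each list, and red an adjusted p under 0.05. The 6 named genes passed, with Pgam2 (1.37) and Egln3 (1.01) farthest to the right; the vertical scatter within a list has no meaning.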

How the data were processed

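Cells were sorted into lysis buffer, and biotin-labelled cRNA was made from column-purified total RNA by in vitro transcription that was repeated once, per the labels' protocols, so signal lies mostly near the 3′ end. The deposited values were linear intensities, 1 per probe set and array. RMA is the only tool the submitters' processing notes name, and its version, the scaling and any filter are not given in the sources used here. Medians of the arrays ranged from 77.4 to 79.0, and detection calls were not part of the table. The analysis used log2(intensity + 1), no further normalization and no filter, with 64 control probe sets left out of 45101. Of 45037 probe sets 34945 named 1 gene, 932 several and 9160 none. Groups of 3 arrays were compared by limma 3.58.1 (R 4.3.3), two-sided, with Benjamini-Hochberg adjustment over all 18193 genes or, where stated, all probe sets. The number of arrays limits the precision. The limma fit was tested on simulated data with independent normal noise and known differences, and the other steps were not simulated. The members, lists and tests were chosen with earlier results of these data known. Array values were to be printed for members called or with the smallest p in each step, and others whose array values appear were chosen after these were seen; for other lists the called genes or the 3 with the smallest p. All 33 members were found in RefSeq (GRCm38.p6), and 0 symbols changed. Python 3.11.15 with matplotlib 3.10.9 drew the figures. Alternatives were a replicate block, each array left out, quantile normalization, median centring, a brightness filter, an intensity trend, other choices of probe set, no pseudocount, the beta-actin ratio and, chosen after seeing the data, array weights.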

Additional observations from a re-analysis of the deposited data

Results flagged for a closer look

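The control probe sets of the array were outside the comparisons, and those for Gapdh read a glycolytic gene that no other probe set named alone. The 3′ Gapdh control was 4802, 4836 and 4024 in wild-type and 5770, 5749 and 5751 in E2A-deficient cells, a log2 difference of 0.34 that was not tested. The middle and 5′ Gapdh controls differed by 0.47 and 0.71, and the 3′, middle and 5′ beta-actin controls by 0.27, 0.35 and 0.68.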

How the results depend on the processing

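Over 16 alternatives the 33 members gave 515 values, of which 479 kept their direction and their side of the threshold, 24 lost a call, 1 gained one and 11 changed sign. The count of members called went from 4 to 2 with the replicate block, quantile normalization, an intensity trend with robust variances and only probe sets without a shared suffix (which gave no value for 11 members, Ldhb and Tpi1 among them), to 0 when the beta-actin ratio was a covariate, and to between 1 and 3 with 1 array left out. Counts over all genes were 320 to 533 with 1 array left out and 125 with the beta-actin ratio. Arrays with the same replicate number did not deviate together (correlations 0.0168, 0.0166 and -0.0417), and no wild-type array correlated best with its own number. The replicate block gave 459 calls over all genes, and under it Pkm and Ldhb kept their call while Tpi1 (limma adjusted p = 0.0669) and Ogdh (0.0517) did not. The sign changes were all in members that did not pass in the reported test or in the alternative. They were Pfkl (-0.0047), Pgk1 (-0.036), Idh2 (-0.0026), Mdh1 (-0.031) and Tkt (-0.078) after quantile normalization, Mdh1 with the beta-actin ratio (-0.075), Idh3a with unshared probe sets (0.075), Sucla2 with the mean of probe sets (-0.028), and, with 1 array left out, Pfkl without E2A-deficient replicate 3 (-0.030, range -0.030 to 0.23), Aldoc without wild-type replicate 2 (-0.067, range -0.067 to 0.089) and Mdh1 without wild-type replicate 3 (-3.3e-05, range -3.3e-05 to 0.24). Dim probe sets such as those of Eno2 and Slc16a3 lie near the floor of the deposited values, where changes are compressed.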
